A study of Mus musculus with 15 samples.

Results

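The resting state of RAW264.7, a mouse macrophage-like cell line, was described from the 3 untreated RNA-seq libraries of a series of 15. The libraries were chosen by their label alone, as untreated replicates 1, 2 and 3, so no measured value entered the choice. The other 12 libraries came from cells given the peptide LCCL at 1 µg or 10 µg for 6 h or 24 h and enter no result below. The untreated cells were labelled wild type with no treatment, and all libraries carried batch label 1. The labels give neither a vehicle nor a harvest time for the untreated cells, and they do not say whether the replicates were separate cultures, so the spread between them may be technical. RAW264.7 was established from a tumour that Abelson leukaemia virus induced in a male mouse, so it models a dividing, transformed macrophage.

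Macrophages are phagocytes that detect microbes through Toll-like and other receptors, take up particles and dying cells, digest them in lysosomes, and signal to other cells through cytokines and chemokines. Their identity rests on lineage transcription factors, chief among them PU.1 (encoded by Spi1) and the C/EBP proteins, and on signalling through the receptor for the growth factor CSF1. Many inflammatory genes stay nearly silent at rest and are switched on through NF-kB and interferon pathways, and RAW264.7 is widely used to study that response and the formation of osteoclasts, the bone-resorbing relatives of macrophages.

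Levels are read counts scaled to a common library total of 1000000 (CPM), given for replicates 1, 2 and 3 in that order or as mean ± SD (n = 3 libraries throughout). CPM does not correct for transcript length, so an order of genes by CPM is an order of read counts and favours long transcripts. Where levels of different genes are compared per length, they are given as TPM, which divides by length first and sums to the same total. A gene is called expressed at 1 CPM or more in all 3 libraries and not detected at 0 counts in all 3, and genes between these are called low. A pooled count of 0 allows a level of up to 0.0468 CPM (3 counts over the 3 libraries, counting error only). The libraries held 21069828, 22434642 and 20625877 counts over 25639 gene symbols. Of these symbols, 11046 (43.1%) were expressed, among them 10708 of 21036 protein-coding symbols (50.9%), and 10082 (39.3%) were not detected. Another 3799 symbols had counts but a mean under 0.5 CPM. Levels of the 11046 expressed genes correlated between library pairs at Pearson's r of 0.995 to 0.996 on the log2 scale (across genes, which are not independent replicates).

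The untreated cells were rich in transcripts of lysozyme, osteopontin, ferritin and lysosomal proteases. The 10 symbols with the highest mean CPM held 7.35% ± 0.137 of all counts, the first 25 held 12.2% ± 0.0742 and the first 100 held 21.8% ± 0.0896. The first 1000 symbols held 51.7% ± 0.172. The most read counts fell on mt-Co1, a mitochondrially encoded subunit of cytochrome c oxidase, at 18387, 19909 and 18922 CPM. Next in counts came Lyz2, the lysozyme of macrophages, at 9840.4, 9565 and 9662 CPM, and Spp1, which encodes the secreted phosphoprotein osteopontin, at 7282, 7602 and 7667 CPM. The libraries lay close together for Lyz2, with a coefficient of variation of 1.44%, while replicate 2 was the highest for mt-Co1 and replicate 1 the lowest for Spp1.

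**Figure D1:**
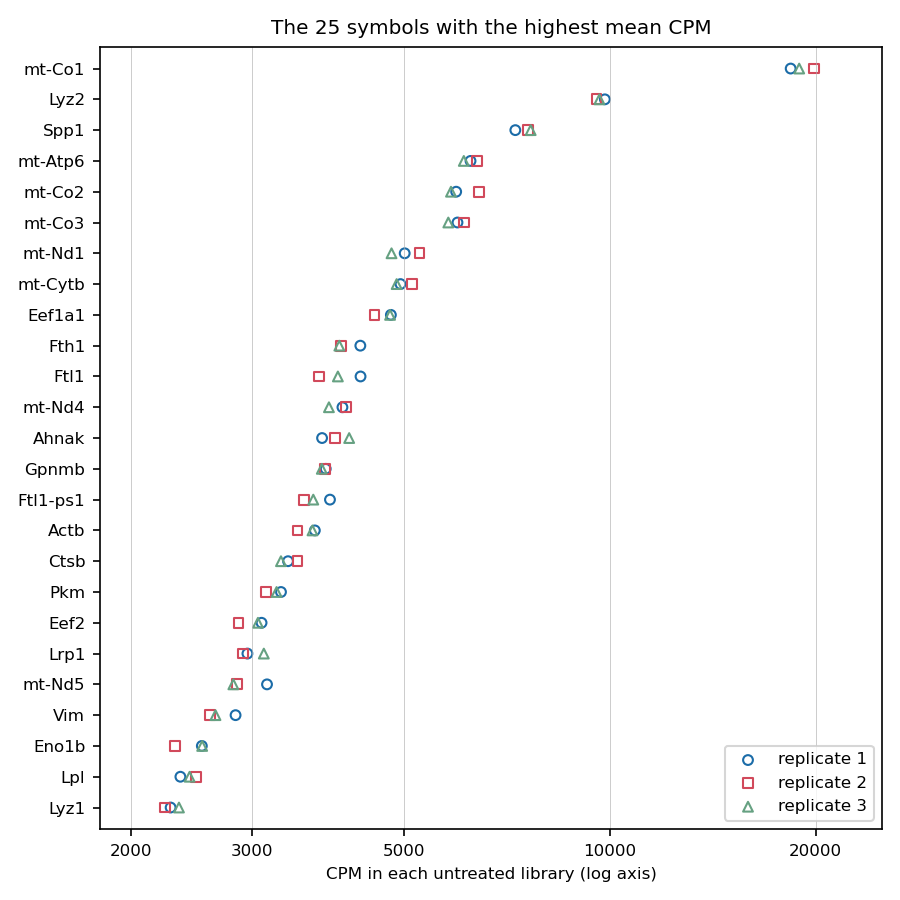
CPM of the 25 symbols with the highest mean in untreated RAW264.7 cells, on a log axis, with 1 point for each of the 3 libraries. Lyz2 and Spp1 hold the most counts of the nuclear genes, and 8 of the 25 symbols are mitochondrially encoded.

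Among the other leading nuclear genes, Eef1a1 and Eef2, translation elongation factors, averaged 4700.4 ± 145 CPM and 3011 ± 125 CPM. Both ferritin subunits, which store iron, were among the leaders, with the heavy chain Fth1 at 4134 ± 164 CPM and the light chain Ftl1 at 4033 ± 281 CPM. Structural and migratory proteins were represented by Actb, a cytoplasmic actin, at 3629.8 ± 114 CPM, Vim, an intermediate filament protein of mesenchymal cells and leukocytes, at 2700.2 ± 125 CPM, and Ahnak, a giant scaffold protein, at 3801, 3970.5 and 4164 CPM. Gpnmb, a glycoprotein of lysosomes and melanosomes, had 3848, 3842 and 3797 CPM, and the cathepsin B gene Ctsb had 3389.6, 3499 and 3309.9 CPM. Lrp1, a large endocytic receptor, had 2957, 2911 and 3124 CPM. Lpl, the lipoprotein lipase that macrophages secrete, had 2359.9, 2487 and 2434 CPM. The libraries lay close together for all 4, with coefficients of variation of 0.723% for Gpnmb and 3.74% for Lrp1.

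Correction for transcript length kept most of these genes near the top but moved the longest ones down. Of the 25 symbols highest by CPM, 16 were also among the 25 highest by TPM, where mt-Co1 was again first at 30174 ± 1223 TPM. Lyz2 and Spp1 stood at 17996 ± 246 TPM and 12193 ± 376 TPM, above every other nuclear gene on that scale. Ahnak and Lrp1, whose transcripts are long, stood at 537 ± 26.8 TPM and 492 ± 20.5 TPM. S100a4, a small calcium-binding protein of motile cells, moved up the order, to 6844 ± 148 TPM. The 100 highest symbols by TPM held 36.9% ± 0.205 of all TPM.

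The 13 mitochondrially encoded protein genes held 5.91%, 6.17% and 5.82% of counts in the 3 libraries (5.97% ± 0.183). Replicate 2 was the highest library for 11 of the 13, against 36.7% of all expressed symbols. Cytosolic ribosomal protein genes, 77 symbols, held only 0.824% ± 0.0268 of counts, with a median of 51.2 CPM and a range of 3.36 to 958 CPM. Several symbols named as pseudogene copies carried far more counts than their parents. Rpl10-ps3 had 1114 ± 23.9 CPM, against 37.1 ± 0.902 CPM for Rpl10, which encodes a ribosomal protein. By TPM the values were 3547 ± 80.8 TPM and 106 ± 2.47 TPM. Rpl9-ps6 had 469 ± 2.19 CPM, against 14.4 ± 0.0776 CPM for Rpl9, or 1606 ± 12.5 TPM against 13.1 ± 0.111 TPM. Of the 14 expressed copies whose parent is also in the table, 12 had more counts than the parent. A transcript length for both was at hand for 7 of the 14, and 6 of these 7 stood above the parent by TPM. Anapc15-ps did so by TPM only, with 5.36 ± 0.283 CPM against 10.9 ± 1.44 CPM for Anapc15. Because copies and parents share sequence, their counts cannot be told apart with certainty, and levels of single ribosomal protein genes, Ftl1 and the enolase genes are uncertain. The share of counts of the 77 ribosomal protein symbols is uncertain too, since it leaves out the copies. The symbols mt-Co1, Eef1a1 and Ctsd share 51.1%, 59.2% and 36.6% of their windows with another gene, which limits their levels in the same way. Of the other mitochondrially encoded genes, mt-Co2, mt-Co3, mt-Atp6, mt-Nd4l and mt-Nd4 share 100%, 99.9%, 99.5%, 98.8% and 62.2%, while mt-Cytb and mt-Nd1 share 0%. The mitochondrial share of counts is therefore uncertain too. Ftl1-ps1 had 9699 ± 423 TPM, against 10184 ± 699.5 TPM for Ftl1, and Eno1b had 3363 ± 179.7 TPM, against 219 ± 13.03 TPM for Eno1.

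Gene lists of macrophage function and of other cell types, 46 in all, held 818 symbols of the table. Of these, 504 were expressed, 169 were low and 145 were not detected, where 43.1% of all symbols were expressed and 39.3% were not detected. Among protein-coding symbols, 50.9% were expressed. The list genes together held 12.7% ± 0.0744 of counts. Of 69 core macrophage genes, 50 were expressed, 12 were low and 7 were not detected.

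**Figure D2:**
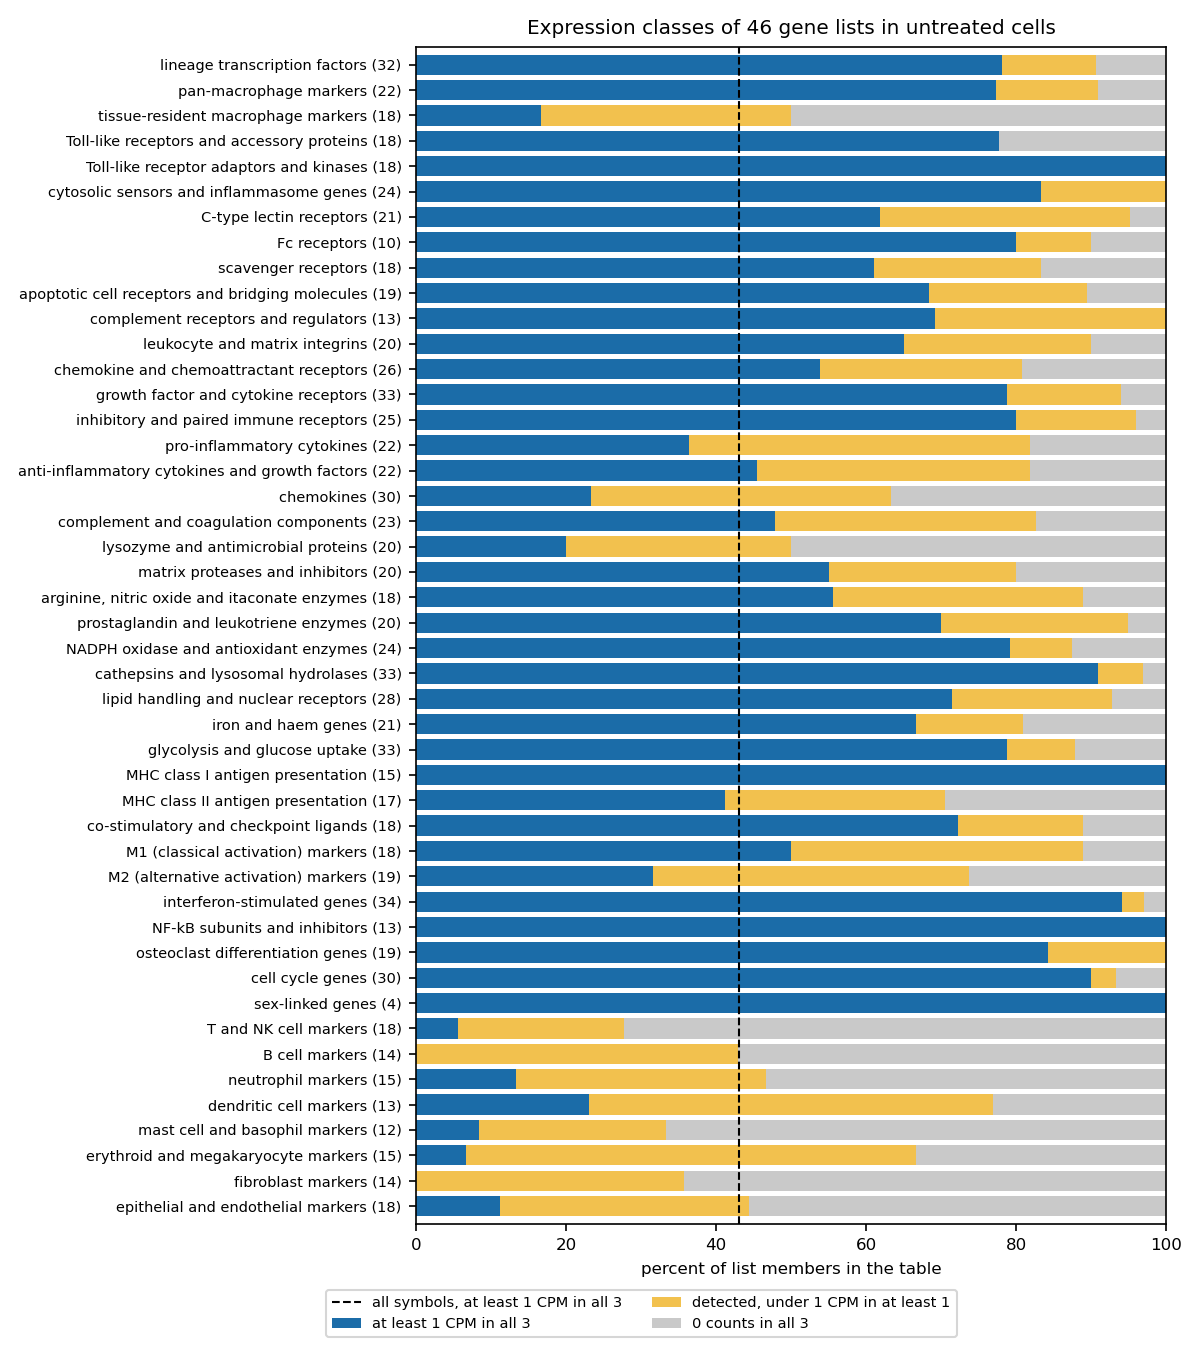
Percent of the members of each of 46 gene lists that were expressed (at least 1 CPM in all 3 untreated libraries), low, or at 0 counts in all 3, with the number of members in the table in brackets. The dashed line marks the 43.1% of all symbols that were expressed; the lists of Toll-like receptor adaptors, MHC class I and NF-kB genes lie wholly in the expressed class, and the lists of B cell and fibroblast markers have no expressed member.

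The cells carried most of the defining markers of the macrophage. Of 22 pan-macrophage markers, 17 were expressed, 3 were low and 2 were not detected. Besides Lyz2, the markers with the most read counts were Mpeg1, a pore-forming protein of phagocytes, at 1968, 2076 and 2085 CPM, Cd14, the co-receptor for lipopolysaccharide, at 2029, 1908 and 2019 CPM, Csf1r, the CSF1 receptor, at 1429.8, 1351 and 1428 CPM, and Lgals3, which encodes galectin-3, at 1229, 1237 and 1197 CPM. Between libraries, each of the 4 had a coefficient of variation under 4%, which still went beyond counting error at this depth (adjusted p of 0.00601 or less in the chi-square test described with the spread below). Cd68, a lysosomal glycoprotein, had 985, 946 and 966 CPM, and Itgam, the CD11b chain of complement receptor 3, had 197, 189 and 205 CPM. Adgre1, which encodes the F4/80 antigen, was lower, at 30.4 ± 0.499 TPM, against 1919 ± 38.8 TPM for Cd68 and 103 ± 4.54 TPM for Itgam. Fcgr1, the high-affinity IgG receptor, had 12.96, 12.7 and 12.7 CPM.

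Markers of several tissue macrophage states were at or near 0. Mrc1, the mannose receptor, lay at the threshold with 1.04, 1.11 and 0.970 CPM, and Mertk, a receptor for dying cells, had 1, 0 and 1 counts. The haemoglobin scavenger receptor Cd163 and the monocyte antigen Ly6c2 were not detected. Aif1, which encodes the cytoskeletal protein IBA1, had only 1.21 ± 0.354 CPM. Among 18 markers of tissue-resident macrophages, 3 were expressed, 6 were low and 9 were not detected. The expressed ones included Nr1h3, the liver X receptor alpha, at 15.1 ± 0.328 CPM, and the folate receptor Folr2 at 1.81 ± 0.0461 CPM. Those at 0 included Gata6 (peritoneal macrophages), Sall1 (microglia), Spic (splenic red pulp), Clec4f (Kupffer cells), Timd4, Vcam1, Car4 and Marco.

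Markers of other cell types were mostly at or near 0. In bulk RNA, fewer cells of a type and less RNA per cell cannot be told apart. Of 18 T and NK cell markers, 13 had no count, including Cd3d, Cd3e, Cd3g, Cd8a and Trac, and the kinase gene Lck was the only expressed member, at 3.97 ± 0.361 CPM. No B cell marker of 14 and no fibroblast marker of 14 was expressed, and Ms4a1, Col1a1, Col1a2 and Col3a1 had no count. Among 15 neutrophil markers, Cebpe, a granulocyte transcription factor, had 5.21 ± 0.301 CPM and Csf3r, the G-CSF receptor, had 3.61 ± 0.658 CPM, while Ly6g, S100a9, Mpo and Ltf had no count. The dendritic cell list of 13 had 3 expressed members, Bst2, Itgax and Itgae, of which Bst2 is an interferon-induced gene of many cells, and Ccr7 and Siglech had no count. In the erythroid and megakaryocyte list 1 gene stood apart. Tal1, a transcription factor of blood stem cells and the erythroid line, had 65.9, 69.05 and 67.97 CPM, the only expressed member of 15, while Hbb-bs and Alas2 had no count. Eng and Vwf, listed for endothelium, had 16.7 ± 0.596 CPM and 6.92 ± 0.894 CPM; the keratin genes Krt5, Krt8, Krt14, Krt18 and Krt19 had none.

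RAW264.7 is of male origin, and its Y-linked genes were expressed. Ddx3y, an RNA helicase gene, had 76.9 ± 5.10 CPM, and Eif2s3y, of translation initiation, had 51.1 ± 4.64 CPM. The histone demethylase genes Kdm5d and Uty had 37.7 ± 3.01 CPM and 23.1 ± 1.10 CPM.

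Lineage transcription factors of the macrophage were broadly expressed, 25 of 32, with 4 low and 3 not detected. Spi1, which encodes PU.1, had 347, 315 and 335 CPM. Zeb2, a repressor that maintains tissue macrophage identity, had 301, 291 and 299 CPM, and Irf5, a factor of inflammatory polarisation, had 268, 253 and 253 CPM. Both C/EBP genes of the lineage were expressed, Cebpb at 109, 82.5 and 119.9 CPM and Cebpa at 68.6, 63.7 and 66.6 CPM. Replicate 2 was the lowest library for Spi1 and for Cebpb. Runx1, a factor of blood formation, had 102 ± 3.89 CPM, and Irf8, which directs monocyte development, had 47.8 ± 1.23 CPM. Maf, whose product restrains macrophage proliferation, was low, with 1, 2 and 0 counts. Klf4, a monocyte factor, had 13.9 ± 1.55 CPM. Mitf, which drives melanocyte, mast cell and osteoclast programmes, had 147 ± 5.54 CPM, and Klf6 and Ets2 had 202 ± 3.46 CPM and 192 ± 1.26 CPM.

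Promoters of identity genes and silent cytokine genes were read for the letters that PU.1 prefers. PU.1 binds sites built on GAGGAA, so the 300 bases from 250 before to 50 after the start are shown for Itgam and Cd68, which were expressed, and for Il12b and Il6, of which Il12b was not detected and Il6 had 1 count in all 3 libraries together. Sequences are from RefSeq on build GRCm38.p6, 5′ to 3′ along the gene, and capitals mark GAGGAA or its reverse complement TTCCTC.
Itgam promoter, chr7:128062390-128062689, plus strand: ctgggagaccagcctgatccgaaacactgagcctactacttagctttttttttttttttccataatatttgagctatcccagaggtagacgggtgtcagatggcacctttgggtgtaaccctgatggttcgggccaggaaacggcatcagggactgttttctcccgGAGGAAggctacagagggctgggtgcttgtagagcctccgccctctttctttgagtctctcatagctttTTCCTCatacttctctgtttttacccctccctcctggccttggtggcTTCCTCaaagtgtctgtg
Cd68 promoter, chr11:69666121-69666420, minus strand: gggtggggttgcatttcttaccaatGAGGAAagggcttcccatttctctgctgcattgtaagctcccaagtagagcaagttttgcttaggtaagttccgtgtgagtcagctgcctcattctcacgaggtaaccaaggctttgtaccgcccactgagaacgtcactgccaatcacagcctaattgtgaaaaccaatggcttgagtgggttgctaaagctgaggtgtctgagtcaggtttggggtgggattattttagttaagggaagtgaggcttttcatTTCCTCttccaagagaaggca
Il12b promoter, chr11:44399813-44400112, plus strand: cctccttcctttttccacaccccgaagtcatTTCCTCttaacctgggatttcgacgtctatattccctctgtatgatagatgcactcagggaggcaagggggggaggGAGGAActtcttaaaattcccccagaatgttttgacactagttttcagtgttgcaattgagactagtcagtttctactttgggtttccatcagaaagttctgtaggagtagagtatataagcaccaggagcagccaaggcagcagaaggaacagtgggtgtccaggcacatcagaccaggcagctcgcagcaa
Il6 promoter, chr5:30012864-30013163, plus strand: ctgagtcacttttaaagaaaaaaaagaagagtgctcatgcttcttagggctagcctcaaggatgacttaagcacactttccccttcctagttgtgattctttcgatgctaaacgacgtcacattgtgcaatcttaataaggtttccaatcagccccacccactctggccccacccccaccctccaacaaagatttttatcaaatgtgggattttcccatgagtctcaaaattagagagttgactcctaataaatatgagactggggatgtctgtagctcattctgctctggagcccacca

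The Itgam window held 1 GAGGAA and 2 TTCCTC, the Cd68 and Il12b windows held 1 of each, and the Il6 window held none, so the letters were present at an expressed and at a silent gene alike. Over both strands, 6 of 13 promoter windows of expressed pan-macrophage markers held the motif (46.2%), against 27.2% of all 20469 windows matched to the table. For cytokines and chemokines the shares were 3 of 12 windows of expressed and 11 of 31 windows of other members (35.5%). Windows of expressed list genes held it in 34.9% of cases and windows of list genes that were not detected in 37.0%. Over all symbols, the shares were 26.3% for expressed and 27.9% for not detected ones. The base composition of the windows did differ with expression: the median count of CG dinucleotides was 21 in expressed and 3 in not detected genes, and TATAAA on the forward strand was found in 4.0% of expressed and 16.2% of not detected windows. These are descriptions of letters in a window and not of binding.

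Most of the Toll-like receptor apparatus was expressed. Of 18 receptors and accessory proteins, 14 were expressed and 4 were not detected. Tlr2, a receptor for bacterial lipoproteins, had 394, 354 and 382 CPM, Tlr4, the receptor for lipopolysaccharide, had 165, 173 and 169 CPM, and Tlr7, a receptor for single-stranded RNA, had 256, 258 and 268 CPM. Replicate 2 was the lowest library for Tlr2, and the spread was not called for Tlr4 and Tlr7 (adjusted p = 0.296 and 0.11, chi-square test). Tlr13, which detects bacterial ribosomal RNA, had 171 ± 4.10 CPM, and Unc93b1, the chaperone of the endosomal receptors, had 299 ± 7.69 CPM. Cd180, a relative of Tlr4 that limits its signalling, had 351 ± 7.95 CPM, and Tlr3, a receptor for viral RNA, had 23.2 ± 0.741 CPM. Tlr9, the receptor for unmethylated DNA, had 6.88, 4.95 and 5.43 CPM, highest in replicate 1, and Ly96, which encodes the MD-2 partner of Tlr4, had 4.89, 6.28 and 4.85 CPM, highest in replicate 2. Per length, Ly96 had 20.7 ± 3.13 TPM, against 101 ± 2.47 TPM for Tlr4 and 2957 ± 105 TPM for Cd14. Tlr5, Tlr11, Tlr12 and the secreted binding protein gene Lbp had no count. All 18 listed adaptors and kinases were expressed, with Myd88, the common adaptor, at 105 ± 5.03 CPM and Irak1 at 139.7 ± 0.491 CPM. All 13 NF-kB subunits and inhibitors were expressed too, including Nfkb1 at 116 ± 4.45 CPM, Rela at 67.6 ± 5.43 CPM and the inhibitor Nfkbia at 123 ± 5.43 CPM.

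Cytosolic sensing was largely expressed, with Pycard as the low member among the core sensors. Of 24 sensors and inflammasome genes, 20 were expressed and 4 were low. Nlrp3, the sensor of membrane damage, had 128, 125 and 131 CPM, and Casp1, the protease that activates IL-1 beta, had 47.7, 55.4 and 47.7 CPM. Gsdmd, the pore-forming executioner of pyroptosis, had 86.5, 87.9 and 88.4 CPM. Pycard, which encodes the adaptor ASC that joins Nlrp3 to Casp1, had 4, 4 and 6 counts, or 0.190, 0.178 and 0.291 CPM. Il1b, the substrate of Casp1, had 3, 1 and 3 counts. All 3 libraries were under 1 CPM for both genes. DNA and RNA sensing was represented by Cgas at 125 ± 0.924 CPM, Aim2 at 96.97 ± 3.84 CPM, Ddx58, which encodes RIG-I, at 98.2 ± 8.82 CPM, and Sting1 at 19.97 ± 0.900 CPM.

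**Figure D3:**
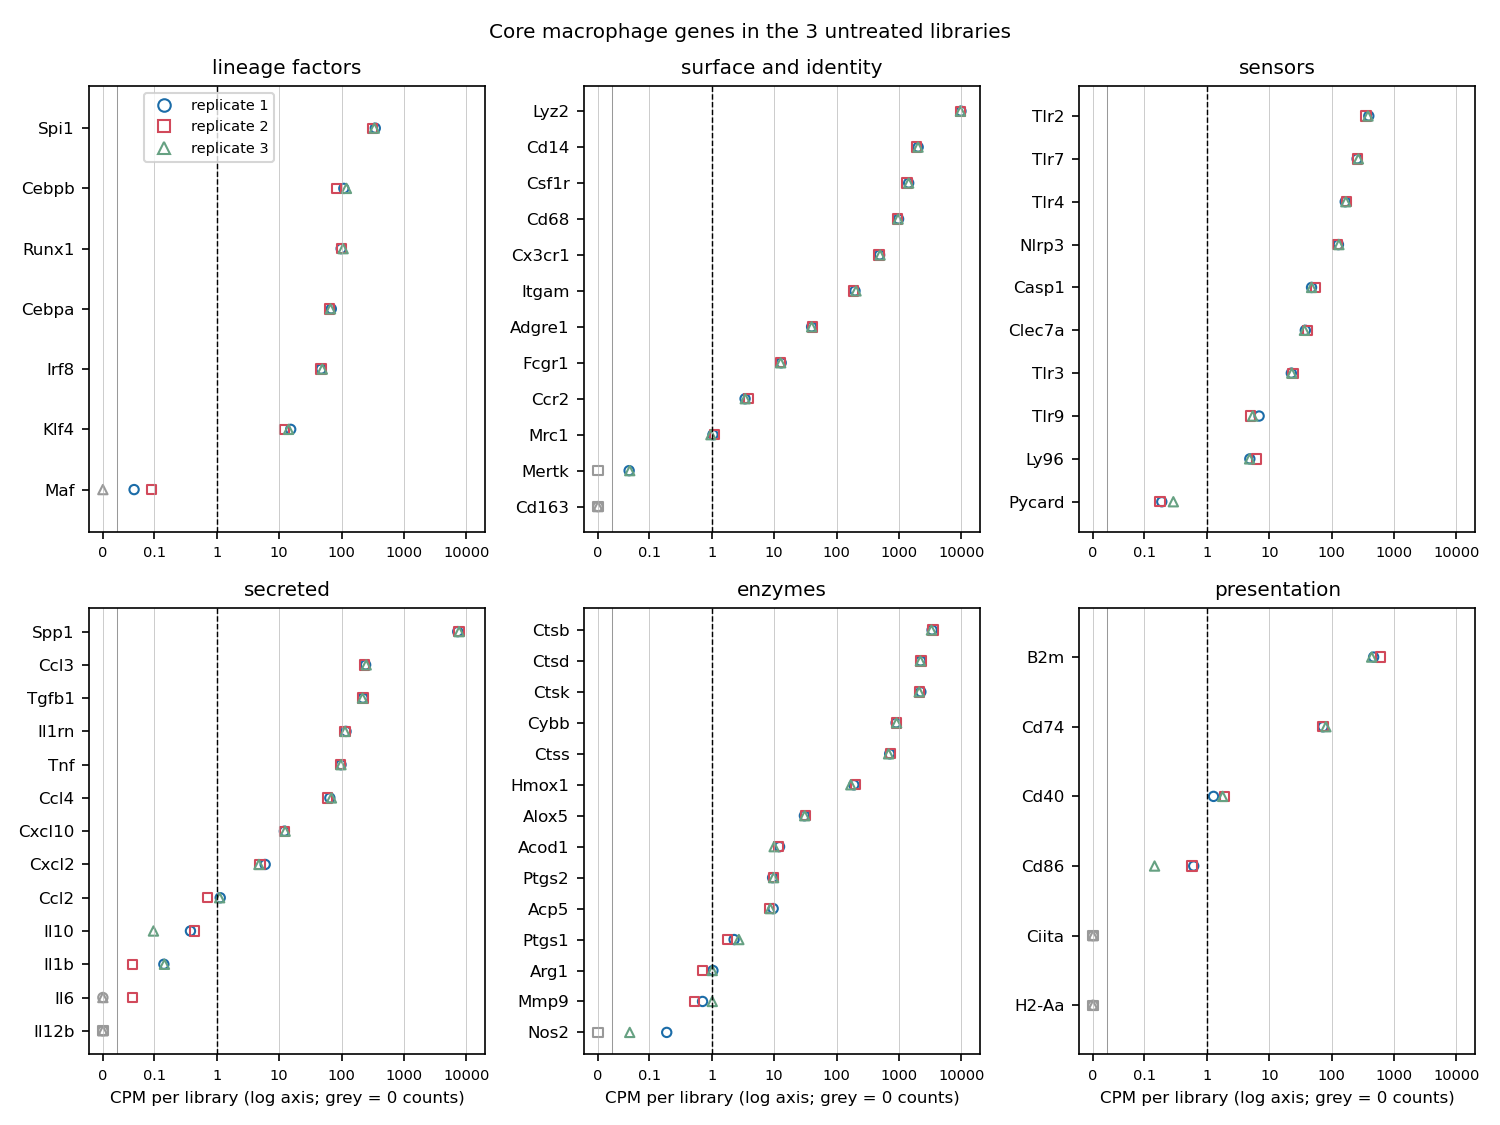
CPM of 62 core macrophage genes in each of the 3 untreated libraries, on a log axis in 6 panels, with grey symbols for a library at 0 counts and a dashed line at 1 CPM. Lineage factors other than Maf and sensors other than Pycard lie right of the line, and Il1b, Il6, Il12b, Nos2, Ciita and H2-Aa lie left of it.

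C-type lectins, which bind sugars and damaged cells, were expressed as several receptors of innate alarm. Of 21 listed genes, 13 were expressed, 7 were low and 1 was not detected. Clec5a had 574, 584 and 568 CPM, Clec4e, which encodes Mincle, had 405, 416 and 357 CPM, and Clec4d, its partner, had 210.3, 224 and 194 CPM. Clec12a, an inhibitory member, had 112 ± 8.59 CPM, and Clec7a, the receptor for fungal beta-glucan, had 37.9, 40.9 and 36.7 CPM. The signalling kinase Syk had 132 ± 2.16 CPM. Cd209b had no count.

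Phagocytic receptors were expressed for antibody, lipoprotein and dying-cell cargo, with a few absences. On the Fc receptor list, 8 of 10 genes were expressed. The shared signalling chain Fcer1g had 233, 239.8 and 236 CPM, and Fcgr2b and Fcgr3, an inhibitory and an activating low-affinity receptor, had 58.2 ± 2.59 CPM and 57.6 ± 2.50 CPM. The last 2 are close relatives, with 7.44% and 12.8% of their 50-base windows shared with another gene. Of 18 scavenger receptor genes, 11 were expressed, including Colec12 at 817 ± 12.01 CPM, Msr1, the class A receptor, at 552, 536 and 522 CPM, and Cd36, the fatty acid and oxidised lipoprotein receptor, at 164, 139 and 139 CPM. Marco, Scara5 and Cd163 had no count. Among 19 genes of dying-cell uptake, 13 were expressed. Trem2, a lipid-sensing receptor, had 415, 431 and 413 CPM, and the cytoskeletal switch genes Rac1 and Rac2 had 333 ± 5.07 CPM and 300.3 ± 2.99 CPM. Dock2 and Itgav had 196 ± 5.69 CPM and 177 ± 2.10 CPM. Of the TAM receptor kinases, only Axl was expressed, at 1.19, 1.87 and 1.75 CPM, beside low Tyro3 (0.439 CPM) and Mertk. Havcr1 and Timd4, receptors for phosphatidylserine, had no count.

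Integrins and complement receptors were expressed mainly as the leukocyte and fibronectin-binding forms. Of 20 integrin genes, 13 were expressed. Itga4, the alpha chain of VLA-4, had 1407, 1479 and 1499.7 CPM, and Itgb2, the shared beta chain of leukocyte integrins, had 306, 283 and 297 CPM. Itga5 and Itgb1, the chains of the fibronectin receptor, had 283 ± 1.66 CPM and 279 ± 7.16 CPM. Itgb2l and Itgb8 had no count. Of 13 complement receptors and regulators, 9 were expressed and 4 were low. C3ar1, the C3a receptor, had 162 ± 3.50 CPM, and Cr1l, a regulator of complement on mouse cells, had 72.6 ± 4.76 CPM. In the annotation used for lengths, 68.7% of the exon bases of Itgam overlap a same-strand model, Gm49368, so part of that level cannot be assigned with certainty.

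Of 26 chemokine and chemoattractant receptor genes, 14 were expressed, 7 were low and 5 were not detected. Ccr9, a receptor of gut-homing lymphocytes and thymocytes, had 579, 624 and 587 CPM. Cx3cr1, the fractalkine receptor of monocytes and microglia, had 489, 477 and 498 CPM. The libraries lay within a coefficient of variation of 4.01% for Ccr9 and 2.08% for Cx3cr1. Ptafr, the receptor for platelet-activating factor, and P2ry6, a nucleotide receptor, had 72.6 ± 3.55 CPM and 67.8 ± 1.25 CPM. Ccr2, the receptor by which monocytes enter tissue, had 3.42, 3.88 and 3.44 CPM. Ccr7, Cmklr1, Ackr3, Cxcr1 and Fpr2 had no count. Ccl25, which encodes the ligand of Ccr9, was itself expressed, at 16.9, 19.03 and 18.7 CPM.

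Growth factor and cytokine receptors were widely present, 26 of 33. Besides Csf1r, they included Tgfbr2 at 258 ± 11.6 CPM, Il6ra at 175, 175 and 176 CPM, Il6st at 148 ± 3.19 CPM and Ifngr2 at 139.8 ± 4.15 CPM. Csf2ra, the GM-CSF receptor alpha chain, had 135, 124 and 119 CPM. The interferon receptor genes Ifnar1 and Ifnar2 had 115 ± 1.37 CPM and 89.8 ± 2.21 CPM. Il4ra, through which IL-4 and IL-13 act, had 1.38, 1.52 and 0.873 CPM. Il1r1 and Il3ra had no count. Among 25 inhibitory and paired receptors, 20 were expressed, among them Sirpa, which binds CD47 on other cells, at 1191, 1138 and 1187 CPM, and Lilrb4a and Lilrb4b at 1564 ± 25.5 CPM and 796 ± 31.8 CPM. The counts of the last 2 are uncertain, since every 50-base window of the Lilrb4a transcript used here occurs also under another gene. The adaptor gene Tyrobp, which carries the signal of Trem2, was also expressed, and its spread between libraries is given further on.

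The cytokine genes of the resting cell were expressed in part. The shares were 36.4% of pro-inflammatory genes and 45.5% of anti-inflammatory and growth factor genes, near the 43.1% of all symbols. Of 22 pro-inflammatory cytokine genes, 8 were expressed, 10 were low and 4 were not detected. Tnf, the tumour necrosis factor gene, had 98.2, 96.7 and 97.8 CPM. Mif had 106 ± 4.96 CPM, and Tnfsf9, which encodes the 4-1BB ligand, had 39.2 ± 2.67 CPM. Il6 had 0, 1 and 0 counts, and Il12b, Il12a, Csf2 and Ifng had none. Per length, Tnf stood at 146 ± 1.40 TPM, against 0.200 ± 0.104 TPM for Il1b. Among 22 anti-inflammatory cytokines and growth factors, 10 were expressed. Besides Spp1, they included Grn, which encodes progranulin, at 871, 868 and 907 CPM, Tgfb1 at 220.4, 221 and 217 CPM, Pdgfb at 153, 157 and 166 CPM and Igf1 at 122, 124 and 114 CPM. Il1rn, the antagonist of the IL-1 receptor, had 118, 114 and 114 CPM. Il10 was low, with 8, 10 and 2 counts, replicate 3 being the lowest. Il13, Hgf, Bmp2 and Gdf3 had no count.

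Chemokines had a lower share, with 7 of 30 genes expressed (23.3%, against 43.1% of all symbols), 12 low and 11 not detected. Ccl9, a CC chemokine of mouse myeloid cells, had 424, 444 and 422 CPM, Ccl3 had 243, 235 and 248 CPM and Ccl4 had 65.02, 59.2 and 68.9 CPM. Cxcl16, a membrane-bound chemokine that also takes up oxidised lipoprotein, had 65.3 ± 4.84 CPM. Cxcl10, a gene of the interferon response, had 12.2, 12.2 and 12.5 CPM, and Cxcl2, which attracts neutrophils, had 5.98, 4.95 and 4.75 CPM. Ccl2, the ligand of Ccr2, straddled the threshold with 1.14, 0.713 and 1.12 CPM. Cxcl3, Cxcl5, Cxcl12, Cxcl13, Cxcl14, Ccl8, Ccl12, Ccl20, Ccl24, Ccl27a and Cx3cl1 had no count. By TPM, Ccl3 had 773 ± 24.4 TPM and Ccl9 had 349.5 ± 9.26 TPM.

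Among the other lists of secreted products, only the antimicrobial one fell well below the 43.1% of all symbols expressed. Its share was 20%, against 47.8% of complement and coagulation components and 55% of matrix proteases and inhibitors. Of 20 lysozyme and antimicrobial genes, 4 were expressed, Lyz2, Lyz1, Slc11a1 and Wfdc17, and 10 had no count, including Camp, Lcn2, Ltf, Chil3 and S100a9. Lyz1, the lysozyme of intestinal Paneth cells, had 2284, 2238 and 2349 CPM. Since Lyz1 and Lyz2 transcripts share 16.1% and 15.4% of their 50-base windows with another gene, the split of counts between them is uncertain. Slc11a1, the metal transporter of the phagosome, had 112 ± 4.96 CPM. Of 23 complement and coagulation components, 11 were expressed. Plau, the urokinase gene, had 448, 463 and 485 CPM, its receptor gene Plaur had 62.6 ± 4.59 CPM, and Cfp, which encodes properdin, had 127 ± 4.98 CPM. The C1q genes C1qa, C1qb and C1qc, marker genes of tissue macrophages, were near or at 0. C1qa had 0, 2 and 1 counts and C1qb 0, 1 and 0 counts, and C1qc had none. Of 20 matrix proteases and inhibitors, 11 were expressed, among them the inhibitor Cst3 at 848 ± 20.2 CPM, the sheddases Adam8 and Adam17 at 619 ± 6.87 CPM and 347 ± 10.00 CPM, and Adam10 at 223 ± 6.01 CPM. Mmp9 was low, at 0.712, 0.535 and 1.02 CPM, and Mmp3, Mmp10, Mmp25 and Timp3 had no count.

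Enzymes of arginine metabolism mark the classical extremes of activation, and both were low at rest. Nos2, the inducible nitric oxide synthase, had 4, 0 and 1 counts, and Arg1, the arginase of alternative activation, had 1.04, 0.713 and 1.02 CPM. Acod1, which makes itaconate, had 12.2, 11.8 and 9.99 CPM. The polyamine enzymes Odc1, Srm and Sms had 135 ± 7.32 CPM, 125 ± 9.17 CPM and 89.6 ± 1.31 CPM, and Slc7a1, the arginine transporter, had 310.3, 290 and 301 CPM. In all, 10 of 18 genes of this list were expressed, and Ido1 and Kynu had no count. Among 20 prostaglandin and leukotriene enzymes, 14 were expressed. Ptges3, a prostaglandin E synthase and chaperone, had 249 ± 3.54 CPM, Hpgds, the haematopoietic prostaglandin D synthase, had 228, 231 and 228 CPM, and Alox5ap had 119 ± 12.1 CPM. Alox5, the 5-lipoxygenase, had 30.5, 31.7 and 30.8 CPM. The cyclooxygenase genes Ptgs2 and Ptgs1 had 9.44, 9.67 and 9.79 CPM and 2.28, 1.78 and 2.72 CPM.

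Genes of oxidative defence and lysosomal digestion were largely expressed. Of 24 NADPH oxidase and antioxidant genes, 19 were expressed. Cybb, the catalytic subunit of the phagocyte oxidase, had 898, 917 and 915 CPM, and Ncf1, its cytosolic organiser, had 432, 422 and 427 CPM. Gclm, of glutathione synthesis, had 761 ± 31.6 CPM and Txnrd1, a thioredoxin reductase, had 637 ± 20.8 CPM. Hmox1, the haem oxygenase, had 189, 202 and 169 CPM. Nqo1, a quinone reductase, was low at 0.759, 0.624 and 0.727 CPM. Of 33 cathepsins and lysosomal proteins, 30 were expressed. Ctsd had 2225, 2246 and 2205 CPM, Ctsk, the collagen-degrading cathepsin of osteoclasts, had 2242, 2142 and 2109 CPM and Ctss had 709, 739 and 681 CPM. Psap, the precursor of the saposins, had 1017 ± 21.7 CPM. By TPM, Ctsk stood at 3498 ± 99.7 TPM, above 1752 ± 43.8 TPM for Ctsb. Ctsh was low, at 1, 1 and 0 counts, and Ctsg, a protease of neutrophils, had none.

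Lipid, iron and sugar handling showed a similar mix of strong and silent genes. Of 28 lipid handling genes and nuclear receptors, 20 were expressed. Besides Lpl, the desaturase Scd2 had 649.6, 669.6 and 785 CPM, the fatty acid synthase Fasn 507, 487 and 546 CPM and Soat1, which esterifies cholesterol, 329.8, 323 and 330 CPM. Apoe, the apolipoprotein that many tissue macrophages secrete, had 6.79, 7.58 and 6.01 CPM, and Pparg was low, at 5, 5 and 6 counts. Apoc1 and Ch25h had no count. Of 21 iron and haem genes, 14 were expressed. The transferrin receptor Tfrc had 798, 763 and 758 CPM and the iron exporter Slc40a1 had 13.98 ± 0.654 CPM, while Lcn2, Tfr2 and Steap4 had no count. Of 33 glycolysis and glucose uptake genes, 26 were expressed. Replicate 2 was the lowest library for 17 of these 26, against 34.1% of all expressed symbols. Pkm, the pyruvate kinase, had 3310.1, 3151 and 3262 CPM, the symbol Aldoa_1, for an aldolase, 936 ± 39.1 CPM, Ldha 771 ± 14.2 CPM and Pgam1 703 ± 32.6 CPM. Ldhb had no count.

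Antigen presentation was split between the classes. All 15 MHC class I genes of the table were expressed. H2-D1 and H2-K1, the classical heavy chains, had 647, 587 and 636 CPM and 263, 239 and 258 CPM, and B2m, the light chain, had 471, 599 and 438 CPM. Replicate 2 was the highest library for B2m, whose coefficient of variation was 16.97% (adjusted p = 8.76e-134, chi-square test). The chaperone Calr had 1547 ± 14.4 CPM and Tapbp, the tapasin gene, had 349.7 ± 9.47 CPM. Of 17 MHC class II genes, 7 were expressed, 5 were low and 5 were not detected. Ciita, the master activator of the class, had no count, nor had H2-Aa, H2-Ea, H2-Eb2 and H2-Ob, while H2-Ab1 and H2-Eb1 had 0, 5 and 0 counts and 0, 0 and 2 counts. The expressed members were Ifi30, Cd74, Rfx5, Rfxap, H2-DMa, Rfxank and H2-DMb2. Ifi30, a lysosomal thiol reductase, had 274 ± 10.9 CPM, Cd74, the invariant chain, had 72.8, 72.4 and 80.9 CPM, and the factors Rfx5 and Rfxap had 28.3 ± 0.0675 CPM and 18.0 ± 0.960 CPM.

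Of 18 co-stimulatory and checkpoint ligands, 13 were expressed. Icam1, an adhesion ligand, had 113 ± 2.70 CPM and Vsir, which encodes VISTA, had 111 ± 4.74 CPM. Cd80 had 16.1 ± 1.13 CPM, Cd40 lay just above the threshold at 1.28, 1.92 and 1.79 CPM, and Cd86 was low at 0.617, 0.579 and 0.145 CPM, lowest in replicate 3. Cd70 and Tnfsf4 had no count. Of 18 M1 markers, which stand for classical activation, 9 were expressed, 7 were low and 2 were not detected. Of 19 M2 markers, which stand for alternative activation, 6 were expressed, 8 were low and 5 were not detected, with Chil3, Chil4, Retnla, Ccl24 and Cd163 at 0. These shares, 9 of 18 and 6 of 19, lie on either side of the 43.1% of all symbols.

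Of 34 interferon-stimulated genes, 32 were expressed in these cells, which were labelled as given no treatment. Ifitm3, an antiviral membrane protein, had 297, 315 and 337 CPM, Oas3 had 282, 309 and 318 CPM, Oas2 had 186 ± 17.6 CPM and Ifi44 had 174 ± 10.9 CPM. Oas1a had 136 ± 8.22 CPM, a value that is uncertain because 57.6% of its windows occur under another gene. The interferon gene Ifnb1 had 1, 0 and 0 counts. Mx1, an antiviral GTPase, was at the threshold with 1.09, 1.11 and 0.873 CPM, and Ifi47 had no count. Replicate 1 was the lowest library for 27 of the 32 expressed genes (84.4%), against 35.5% of all expressed symbols, and replicate 3 was the highest for 21, against 32.0% of all expressed symbols. The chi-square test of the spread called 18 of the 33 list genes with enough counts, where it called 19.0% of all genes tested. Replicate 1 also stood apart by transcript length, as given with the spread, and the part of that in these values was not tested. Irf7, a master factor of the response, had 84.4, 92.7 and 105 CPM.

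Osteoclast differentiation genes were mostly present, 16 of 19, with 3 low. Besides Ctsk, the proton pump subunit Tcirg1 had 430, 439 and 427 CPM, Nfatc1, the transcription factor that drives osteoclast fate, had 245, 224 and 241 CPM, and Tnfrsf11a, which encodes RANK, had 135, 132 and 135 CPM. Dcstamp, needed for cell fusion, had 134 ± 3.07 CPM. Acp5, the tartrate-resistant acid phosphatase of mature osteoclasts, had 9.63, 8.38 and 8.68 CPM, and Calcr, the calcitonin receptor, had 1, 0 and 1 counts.

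Genes of cell division were broadly expressed. Of 30 cell cycle genes, 27 were expressed. Mki67, the proliferation antigen, had 1399, 1424 and 1433 CPM, Ccnd1, a G1 cyclin, had 974, 994 and 979 CPM, and Top2a, a topoisomerase of dividing cells, had 645, 663 and 654 CPM. The coefficient of variation of Mki67 over the libraries was 1.24%. Mycn, better known from neuroblastoma, had 358, 311 and 336 CPM, and Myc had 24.1, 21.1 and 19.6 CPM. By TPM the values were 306 ± 21.7 TPM for Mycn and 22.6 ± 2.30 TPM for Myc. Cdk4 had 329 ± 4.19 CPM. Of the inhibitors, Cdkn1a, which encodes p21, had 242 ± 6.04 CPM, and Cdkn2a and Cdkn2b, which lie side by side in the mouse genome, had no count. Abl1, the cellular relative of the oncogene carried by the virus that gave rise to the line, had 98.8 ± 2.08 CPM. Whether these counts include reads of the viral oncogene was not tested, so the level of the cellular gene is uncertain.

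The spread between the untreated libraries was small but went beyond counting error for many genes. A chi-square test of each gene's counts against the library totals, with Benjamini-Hochberg adjustment over 11822 genes, called 2243 of them (19.0%). Of 532 list genes tested, 157 were called. The share called was 8.42% of genes at 1 to 5 CPM and 76.3% of genes at 500 CPM or more, where counting error is smallest. The common biological coefficient of variation, estimated with edgeR, was 4.63%. Median coefficients of variation were 14.7% at 1 to 5 CPM, 5.54% at 5 to 50 CPM, 3.20% at 50 to 500 CPM and 2.62% above, against 14.1%, 4.56%, 2.21% and 0.760% from counting error alone. Replicate 2 was farthest from the median library in 1101 of the called genes, replicate 1 in 649 and replicate 3 in 493. Transcript length went with these differences: the median was 2193 bases for the 271 genes high in replicate 1 and 4301 bases for the 378 low in it, against 3064 bases for all genes tested. For replicate 2 it was 3043 bases for the 604 high genes and 2480 bases for the 497 low ones, and for replicate 3 it was 4259 bases for 253 high and 2804 bases for 240 low genes. The part of transcript length in the spread was not tested. Without replicate 2 the test called 700 genes.

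**Figure D4:**
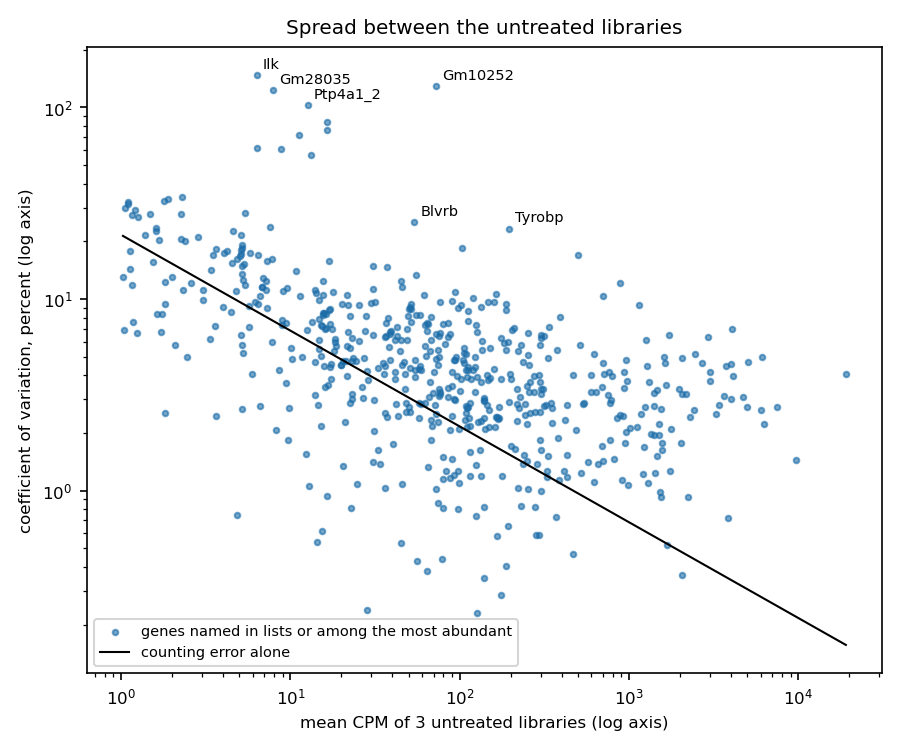
Coefficient of variation over the 3 untreated libraries against mean CPM for the list genes, the most abundant genes, both shown where the mean is at least 1 CPM, and the 10 genes of largest spread among those with a mean of at least 5 CPM; both axes are logarithmic. The line is counting error alone; Ilk, Gm10252, Gm28035 and Ptp4a1_2 lie far above it, and Tyrobp and Blvrb stand out among the list genes.

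Of 9975 genes with a mean of at least 5 CPM, 81 had a coefficient of variation beyond counting error of 20% or more. Among the 463 list genes at that level, 4 did, a share close to that of all genes. Tyrobp, the adaptor gene, had 167, 247 and 170.1 CPM and Blvrb, a biliverdin reductase, had 46.5, 69.8 and 45.8 CPM, both high in replicate 2. Itga9, an integrin alpha chain, had 7.12, 4.37 and 4.65 CPM, high in replicate 1. Tnfsf13, which encodes the B cell factor APRIL, had 5.55, 8.96 and 8.29 CPM, low in replicate 1, and shares 51.9% of its windows with another gene. The largest spread of all belonged to Ilk, the integrin-linked kinase gene, with 15, 383 and 25 counts. In the annotation used for lengths, 76.7% of its exon bases overlap Taf10 on the opposite strand. Gm10252, which overlaps Ftl1 on the opposite strand over 42.7% of its exon bases, had 501, 4068 and 270 counts, and Gm28035 had 392, 0 and 102 counts. Ptp4a1_2, a symbol with a numbered suffix, had 157, 617 and 62 counts. Replicate 2 was the highest library for Ilk, Gm10252 and Ptp4a1_2 and the lowest for Gm28035. The part that overlapping or copied annotation plays in these counts was not tested. The other 6 genes of largest spread were 3300002I08Rik, Gm10130, Ndor1_2, Zfp866, Gm20716 and Gm45837, with coefficients of variation of 56.5% to 84.4%.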

How the data were processed

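Per the labels' protocols, RNA was isolated with TRIzol, cleaned up with an RNeasy kit and turned into Illumina libraries with the TruSeq stranded mRNA kit. The authors deposited 1 table of raw whole-number counts per gene symbol, with 15 library columns; each untreated column was matched by the column name in its label, and 0 columns were left without a sample. Build GRCm39 is named in the submitters' processing notes. Aligner, counting tool, gene annotation, strand setting and the handling of multi-mapping reads were not given in the sources used. The counts hold reads without molecular identifiers, so floors cover counting error only.

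From the deposited counts of the 3 untreated libraries (20625877 to 22434642 counts), CPM was computed on each library's own total with Python 3.11.15 and pandas 2.3.3. TPM used the longest basic transcript of each symbol in GENCODE M21, which is on build GRCm38, so only names and lengths were taken from it; 24766 of 25639 symbols and 813 of 818 list genes had a length. Shared sequence was the share of a transcript's 50-base windows that also occur under another symbol. Of 813 list genes with a value, 726 shared under 10% of their windows and 25 shared 50% or more. Levels of those 25, such as Mif at 51.1%, are uncertain also where the text does not say so. Promoter windows came from RefSeq on GRCm38.p6.

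Spread was tested with a chi-square test of each gene's counts in the 3 libraries against the library totals (2 degrees of freedom, at least 30 counts in all, Benjamini-Hochberg adjustment, called at an adjusted p under 0.05), checked on simulated data. The common biological coefficient of variation came from edgeR 4.0.16 in R 4.3.3 on the counts of 11552 genes kept by filterByExpr with TMM factors, and DESeq2 1.42.0 size factors were an alternative. Samples of 1 group allow no contrast, so no test between groups was made.

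The members and lists were chosen with earlier results of these data known, and 109 genes are in more than 1 list. Named genes are drawn from the 25 highest by mean CPM, the 5 highest and the undetected members of each list, 69 core genes whatever they show, and the 10 genes of largest spread at 5 CPM or more. Further low or expressed members named in the text, such as Aif1, Axl, Ctsh, Apoe and the genes compared across replicates, were chosen after their values were seen. The symbols H2-L and Xist were not analysed here, and some list members are not reported here.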

Additional observations from a re-analysis of the deposited data

How the results depend on the processing

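No paired analysis was possible because only 1 group was described. The count of genes at 1 CPM or more in all 3 libraries, that of list members, the mitochondrial share and the coefficient of variation kept within 1.5 times or 1 SD of their values under every alternative run. Leaving out a replicate gave 11088 to 11115 expressed genes, 506 to 509 expressed list members and a biological coefficient of variation of 3.53% to 5.35%. It gave 700 to 1653 genes with a spread beyond counting error, and 700 came without replicate 2, while other scalings and count minimums gave 2100 to 2231. The share of counts in the 100 highest symbols was 17.9% with mitochondrially encoded genes left out and 36.9% of TPM when ranked by TPM. Scaling by TMM or DESeq2 factors leaves shares within a library as they are, so it gave no separate value for them, and it kept the 91 core and most abundant genes within 1 SD of their CPM.

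Of 414 counts of expressed members per list under the alternatives, 98 differed from the counts given for the lists, by at most 3 genes. By over 1.5 times, 7 moved, all in the B cell, mast cell and fibroblast lists and by 1 gene each. At 0.5 CPM, 10 chemokine and 11 pro-inflammatory cytokine genes were expressed. Alternatives added after the data were seen were TPM from the union of exons, which gave 10797 expressed genes, and the spread test without numbered-suffix and mitochondrially encoded symbols, which called 2200 genes. With 3 libraries of 20625877 to 22434642 counts, a gene under 0.0468 CPM cannot be told from an absent one.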

Other observations

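Some of the most abundant symbols lay outside every list and are given as values, chosen after their values were seen. Cfap77, named for a protein of cilia and flagella, had 2042, 2049 and 2034 CPM, or 2838 ± 7.35 TPM. BC005537, a clone-named gene, had 2037, 2074 and 2002 CPM. The libraries lay close together for both, with coefficients of variation of 0.365% for Cfap77 and 1.76% for BC005537. Gm11077, a predicted gene, reached 3626 ± 53.5 TPM from only 125 CPM. Rps27rt, a copy-derived ribosomal protein symbol, had 1663 ± 115 TPM, against 17.9 ± 1.13 TPM for Rps27, and 91.1% of its windows occur under another symbol.

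Across lists, the libraries were not ordered alike. Replicate 1 was lowest for 27 of 32 expressed interferon-stimulated genes, replicate 2 was lowest for 17 of 26 expressed glycolysis genes (65.4%, against 34.1% of all expressed symbols), and replicate 1 was highest for 11 of 19 expressed NADPH oxidase and antioxidant genes, against 31.2% of all expressed symbols. These lists were chosen after their values were seen, and they were not the only ones to lean. Replicate 1 was highest for 7 of 10 expressed arginine, nitric oxide and itaconate genes. Replicate 3 was highest for 13 of 20 expressed lipid genes, against 32.0% of all expressed symbols. It was lowest for 9 of 13 expressed C-type lectin genes, against 30.4% of all expressed symbols. Summed over the expressed interferon-stimulated genes, the libraries held 2164, 2407 and 2478 CPM, and over the glycolysis genes 9070.2, 8689 and 9114 CPM. These are descriptions of 3 libraries, and the part of culture, handling or library preparation in them was not tested.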
